A study of Mus musculus with 20 samples.

Results

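The genes described here encode the extracellular metalloproteases of the mouse heart and their inhibitors. The family was chosen with earlier results of these data known. Its members were taken by a rule on the symbol. It takes every gene whose symbol begins with Adam, Adamts, Adamtsl or Mmp followed by a number, and the 4 tissue inhibitors of metalloproteases, Timp1 to Timp4. The rule found 84 of the 24059 genes counted, of which 33 are Adam, 19 Adamts, 5 Adamtsl, 23 Mmp and 4 Timp genes. Reads were high enough for a test in 52 of the 84. The RNA came from left ventricular free walls of male C57BL/6 mice, about 9 to 13 weeks of age, with 5 libraries in each of 4 groups. CardioGRKO mice, collected at ZT12 or at ZT0, have the glucocorticoid receptor gene, Nr3c1, floxed on both alleles (GRfl/fl), and carry a Cre recombinase under the alpha-MHC promoter (alphaMHCCre/+), which works in cardiomyocytes. GRflox mice, collected at the same times, carry the floxed alleles (GRfl/fl) and no Cre. Loss of the receptor and presence of Cre therefore cannot be told apart between these groups, and cells other than cardiomyocytes keep the receptor gene. By convention, ZT12 is lights off, when nocturnal mice become active, and ZT0 is lights on.

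Matrix metalloproteases (Mmp) are zinc proteases, secreted or held at the cell surface, that cleave collagens, elastin and other matrix proteins. Adam proteases are membrane-anchored and shed growth factors, cytokines and adhesion proteins from the cell surface, whereas Adamts proteases are secreted and cut proteoglycans such as versican and process collagens. Adamtsl proteins resemble Adamts proteins but lack the protease domain, and Timp proteins bind and block the active site of these proteases. In the heart they govern turnover of the matrix around muscle cells and vessels, and much of their expression is known from fibroblasts, endothelial cells and smooth muscle.

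The deleted gene itself was lower in every CardioGRKO library. Nr3c1 averaged 51.0 ± 3.50 CPM (counts per 1e6 counts of the library, scaled by the TMM method) in CardioGRKO and 107 ± 7.98 CPM in GRflox at ZT12 (SD, n = 5 each), a log2 fold change of -1.08 ± 0.06 (± SE, edgeR adjusted p = 5.17e-12). At ZT0 it averaged 55.2 ± 3.51 CPM in CardioGRKO and 115 ± 6.11 CPM in GRflox, a log2 fold change of -1.06 ± 0.06 (edgeR adjusted p = 2.04e-11). The libraries held 5854462 to 37648421 counts, with a median of 23223656, and CardioGRKO ZT0 replicate 1 was the shallowest. Its count file alone carries another number in its header, whose meaning the labels do not give. Without that library, 13 and 5 members were called between genotypes at ZT12 and ZT0, and 11 and 21 with time in CardioGRKO and GRflox, against 12, 6, 12 and 20 with it. Nothing in the labels says that each library is a separate animal, so the p-values measure the spread between these libraries. Defining markers of cardiomyocytes, fibroblasts, endothelial cells, pericytes and smooth muscle, and macrophages were detected, as a ventricular wall would give. Of the 8 macrophage markers, 7 were among the genes counted. No counted marker of these lists was at 0 in any group. Fibroblast markers summed to 951 to 1088 CPM and 985 to 1068 CPM in CardioGRKO at ZT12 and ZT0, and to 903 to 1118 CPM and 884 to 1026 CPM in GRflox at ZT12 and ZT0. Endothelial markers summed to 935 to 1089 CPM and 1175 to 1310 CPM in CardioGRKO at ZT12 and ZT0, and to 1085 to 1174 CPM and 1332 to 1487 CPM in GRflox at those times. In tissue RNA, fewer cells of a type and less RNA per cell cannot be told apart.

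Promoter sequence was read for 4 of the members that changed with time of day in both genotypes and have a window in the RefSeq table, a pair that rose at ZT12 and a pair that fell. The windows hold the 250 bases before the annotated start, from RefSeq on build GRCm38.p6 (mm10), written 5′ to 3′ on the strand of the gene. They were searched on both strands for 5 motifs: capitals mark a match, and a window wholly in lower case holds none. Timp3 and Timp4 were higher at ZT12, and Mmp14 and Adam19 lower:
Timp3 at chr10:86300162-86300411, plus strand: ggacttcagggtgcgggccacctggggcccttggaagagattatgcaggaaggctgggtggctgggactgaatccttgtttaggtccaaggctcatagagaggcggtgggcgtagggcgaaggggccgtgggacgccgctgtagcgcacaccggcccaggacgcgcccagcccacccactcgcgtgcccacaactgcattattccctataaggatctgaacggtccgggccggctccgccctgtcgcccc
Timp4 at chr6:115252206-115252455, minus strand: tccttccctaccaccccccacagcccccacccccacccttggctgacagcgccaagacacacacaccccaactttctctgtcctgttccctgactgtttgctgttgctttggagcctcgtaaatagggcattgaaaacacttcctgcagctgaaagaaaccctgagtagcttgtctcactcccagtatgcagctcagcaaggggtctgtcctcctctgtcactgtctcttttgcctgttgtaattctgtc
Mmp14 at chr14:54431348-54431597, plus strand: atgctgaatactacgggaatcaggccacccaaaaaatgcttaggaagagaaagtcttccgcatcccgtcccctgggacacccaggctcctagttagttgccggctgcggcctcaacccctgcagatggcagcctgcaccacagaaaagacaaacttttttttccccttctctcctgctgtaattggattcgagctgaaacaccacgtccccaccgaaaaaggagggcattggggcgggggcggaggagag
Adam19, first start, at chr11:46054252-46054501, plus strand: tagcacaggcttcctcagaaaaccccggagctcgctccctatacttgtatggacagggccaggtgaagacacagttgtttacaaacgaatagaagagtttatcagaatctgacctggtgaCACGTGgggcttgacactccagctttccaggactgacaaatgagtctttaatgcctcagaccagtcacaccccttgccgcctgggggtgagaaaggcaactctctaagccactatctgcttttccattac
Adam19, second start, at chr11:46055734-46055983, plus strand: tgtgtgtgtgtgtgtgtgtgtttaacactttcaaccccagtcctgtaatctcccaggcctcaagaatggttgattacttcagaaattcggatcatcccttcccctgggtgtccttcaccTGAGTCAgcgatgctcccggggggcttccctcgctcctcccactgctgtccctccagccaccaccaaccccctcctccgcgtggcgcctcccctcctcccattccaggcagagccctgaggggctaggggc
The motifs were the E-box of clock factors (CACGTG), the D-box (TTATGTAA), the ROR and REV-ERB element (AGGTCA behind a flank rich in A and T), the AP-1 element (TGANTCA) and the core of a glucocorticoid response element (GNACA and TGTNC with a gap of 3 bases). The capitals in the first Adam19 window are an E-box whose first base lies at -130 from the start, and those in the second are an AP-1 element at -131. The other Adam19 window in the table, at chr11:46127654-46127903, holds no match and is not printed. An E-box stood in 6.02% of all 32851 promoter windows and an AP-1 element in 6.75%. The D-box stood in 0.819% of all windows, the ROR and REV-ERB element in 0.177% and the glucocorticoid response element core in 0.387%. Windows were available for 33 of the 52 tested members, 37 windows in all. Of these, 3 held an E-box (Adam10, Adam19 and Adamts17), 4 an AP-1 element (Adam19, Mmp12, Mmp13 and Mmp3) and none any of the other motifs. A match describes the letters of a window and is not evidence of binding.

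Levels per length spanned from inhibitors and a membrane protease at the top to proteases near the limit of testing. Averaged over the 20 libraries, Timp3 was highest at 59.4 CPM per kb of exon, followed by Mmp15 (MT2-MMP, a membrane-type protease) at 47.1, Adamtsl5 at 39.8 and Timp2 at 34.3 CPM per kb. Over all 20 libraries, which pool both times and genotypes, the ranges of Timp3 (32.4 to 94.4 CPM per kb), Mmp15 (36.2 to 61.0), Adamtsl5 (31.9 to 50.2) and Timp2 (29.8 to 39.1) overlapped. The order of Timp3 and Mmp15 turned with time. At ZT12 Timp3 had the higher group mean (74.2 against 46.7 CPM per kb in CardioGRKO, 89.9 against 39.5 in GRflox). At ZT0 Mmp15 did (53.5 against 34.4 in CardioGRKO, 48.7 against 39.1 in GRflox). Adam9, a sheddase, followed at 22.9 CPM per kb, Mmp2 (gelatinase A) at 21.2 and Adamtsl4 at 17.9. The leading Adam genes after Adam9 were Adam10 (13.6 CPM per kb) and Adam15 (12.7) over all libraries, but at ZT0 Adam19 was above Adam10 in group mean in both genotypes (15.8 against 14.7 CPM per kb in GRflox). Over all libraries the leading Adamts genes were Adamts1 (9.48), Adamts7 (6.44) and Adamts10 (4.28). After Mmp15 and Mmp2, Mmp24 had the highest Mmp level over all libraries, at 3.99 CPM per kb, but at ZT0 Mmp14 was above it (4.89 against 4.08 CPM per kb in CardioGRKO, and 5.30 against 3.49 in GRflox). No read was counted for 16 members, 11 Adam and 5 Mmp genes, among them Mmp7, Mmp10 and Mmp20. A further 16 had reads but too few to test, among them Mmp8 (neutrophil collagenase), Mmp25 and Adamts13. The use of strand in counting is not given by the labels, and antisense genes overlap exons of Adamts9 (9.2% and 2.8% of its exons), Adamts7 (1.9%), Adam17 (4.3%) and Mmp24 (13.6%), among others.

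**Figure D1:**
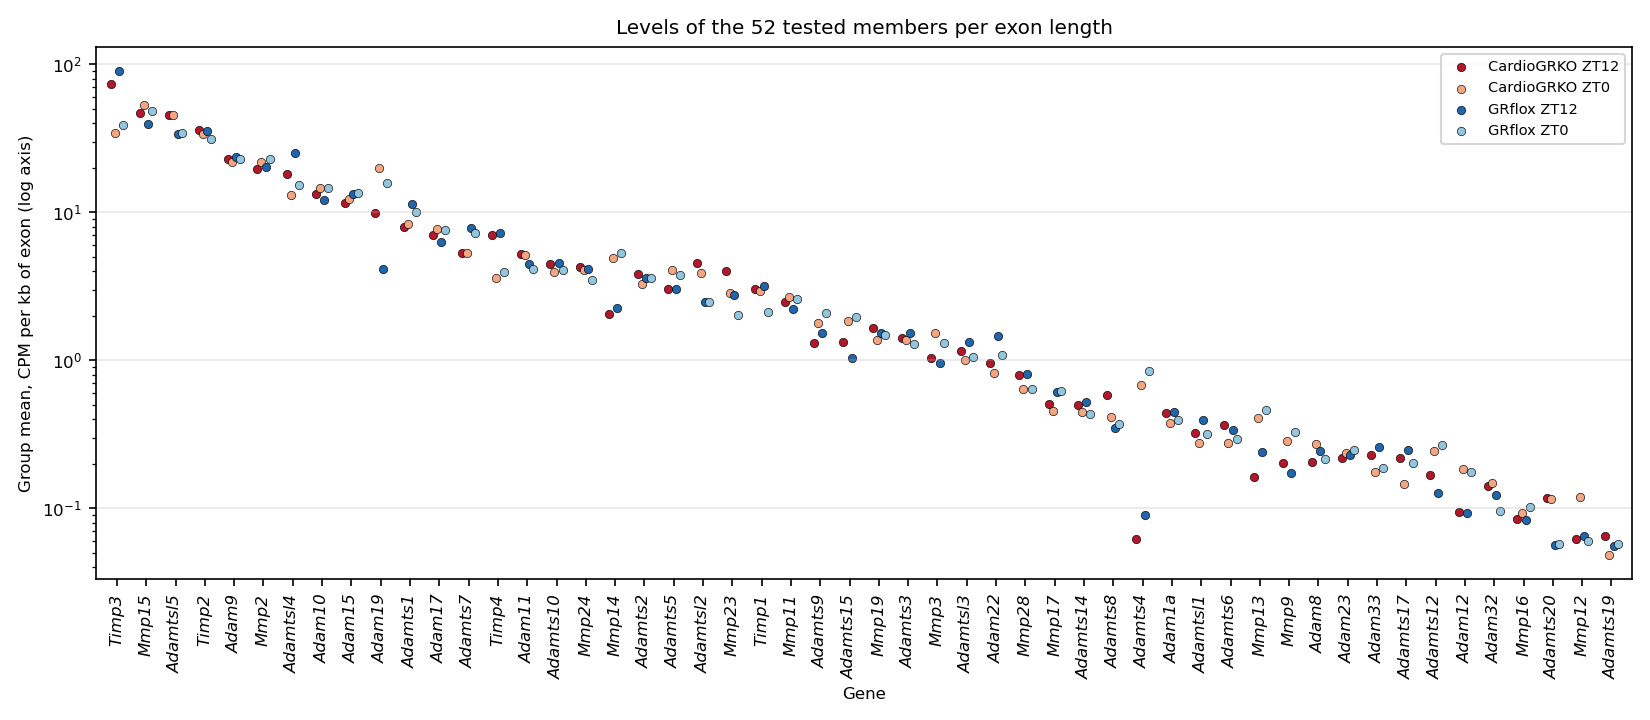
Group mean of each of the 52 tested genes in CPM per kb of exon on a log axis, ordered by the mean over all libraries, with 1 point for each of the 4 groups. Timp3 has group means of 74.2 and 34.4 CPM per kb in CardioGRKO at ZT12 and ZT0 and 89.9 and 39.1 CPM per kb in GRflox at ZT12 and ZT0, so that it leads at ZT12 while Mmp15 is higher at ZT0 (53.5 CPM per kb in CardioGRKO and 48.7 in GRflox), and Adamts4 has the widest gap between times.

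2 of the 4 inhibitors, Timp3 and Timp4, were higher and several proteases lower at ZT12 than at ZT0 in both genotypes. Between ZT12 and ZT0, 20 of the 52 tested members differed in GRflox (38.5%), 8 higher and 12 lower at ZT12, beside 17.3% of all 14007 genes tested (8.13% higher and 9.17% lower). In CardioGRKO, 12 members differed (23.1%), 5 higher and 7 lower at ZT12, beside 9.17% of all genes (4.42% higher and 4.75% lower). A call means an adjusted p under 0.05 in edgeR's quasi-likelihood F-test with Benjamini-Hochberg adjustment over all 14007 genes. The median log2 fold change of the tested members was 0.03 in GRflox and 0.01 in CardioGRKO, beside 0.01 and 0.00 over all genes, and the calls went both ways. The share called was above that of all genes in both genotypes, which is given without a test because the genes were chosen with earlier results known. 10 members were called in both genotypes: Timp3, Timp4, Adamtsl4 and Mmp23 were higher at ZT12, and Adam19, Adamts4, Adamts9, Adamts15, Mmp13 and Mmp14 lower. The share of all genes called in both genotypes was not counted, so the 10 cannot be set against it. Passing in 1 genotype and not the other does not show a difference between genotypes. The interaction, which tests that difference, called 0 of 52 members, beside 0.186% of all genes. At an unadjusted p under 0.05 the interaction held 3 members (Adam19, Adamts12 and Adamts15), and DESeq2 also called 0. Endothelial markers moved with time, with 4 of 8 lower at ZT12 in CardioGRKO and 5 of 8 in GRflox, and of the fibroblast markers Col1a1 alone was called, lower at ZT12 in GRflox. Other markers called with time were Myh11 and Tagln (smooth muscle), higher at ZT12 in CardioGRKO, and Ryr2 and Ttn (cardiomyocyte), Cd68 (macrophage) and Cidec (adipocyte), higher at ZT12 in GRflox, and Cd79a (B cell), lower at ZT12 in both. The part of these shifts in the members' values was not tested.

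**Figure D2:**
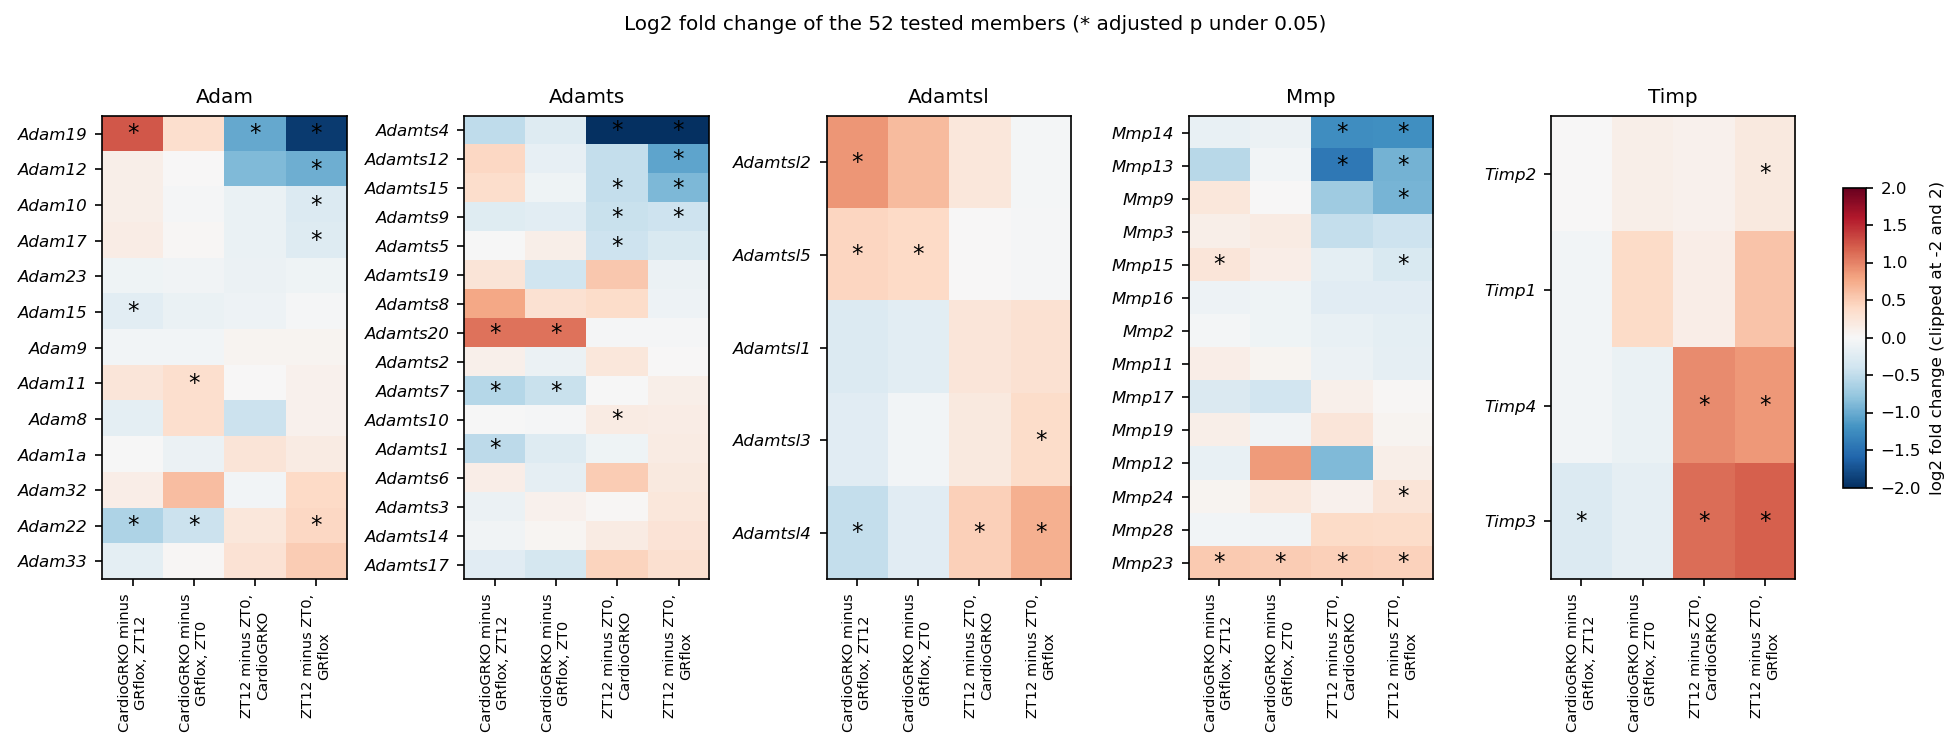
Log2 fold change of each of the 52 tested genes in 4 comparisons (CardioGRKO minus GRflox at ZT12 and at ZT0, ZT12 minus ZT0 in CardioGRKO and in GRflox), by family, with colours clipped at -2 and 2 and a star where the edgeR adjusted p is under 0.05. Starred cells in the time columns are blue for most proteases called. They are red in both genotypes for Timp3, Timp4, Adamtsl4 and the protease Mmp23. They are also red for Adamts10 in CardioGRKO, and for Adam22, Adamtsl3, Mmp24 and Timp2 in GRflox.

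Of the 4 inhibitors, 2 rose at ZT12 in CardioGRKO and 3 in GRflox, where 4.42% and 8.13% of all genes were called higher. Timp3, the matrix-bound inhibitor that also blocks several Adam and Adamts proteases (gene at chr10:86300412-86349505), had 603, 613, 540.4, 607 and 658 CPM in CardioGRKO libraries at ZT12, against 279.6, 314, 280.2, 264 and 265 CPM at ZT0. GRflox libraries had 724, 708, 769, 710.3 and 749 CPM at ZT12, against 287, 311, 358, 279 and 356 CPM at ZT0. Every ZT12 library lay above every ZT0 library in both genotypes. The log2 fold change was 1.11 ± 0.07 in CardioGRKO (2.15-fold, edgeR adjusted p = 5.02e-11) and 1.20 ± 0.07 in GRflox (2.30-fold, edgeR adjusted p = 4.63e-12). Syn3 lies antisense over 1733 exonic bases of Timp3 (21.3% of its exons) and averaged 3.60 CPM, with a log2 fold change with time of 0.34 in CardioGRKO (edgeR adjusted p = 0.115) and 0.54 in GRflox (edgeR adjusted p = 0.00523).

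Timp4, the inhibitor known for its high level in heart (chr6:115244444-115252205), had 45.7, 39.2, 35.9, 45.3 and 41.0 CPM in CardioGRKO libraries at ZT12, against 19.8, 29.1, 24.1, 13.9 and 18.7 CPM at ZT0. The GRflox values were 37.6, 38.1, 54.3, 40.1 and 43.7 CPM at ZT12, against 25.4, 23.6, 26.2, 15.8 and 25.5 CPM at ZT0. The times did not overlap in either genotype, and 1 GRflox library at ZT0, replicate 4, was well below the other 4. Log2 fold changes were 0.95 ± 0.15 in CardioGRKO (edgeR adjusted p = 1.85e-04) and 0.87 ± 0.15 in GRflox (edgeR adjusted p = 2.09e-04). Timp2, which with Mmp14 takes part in activation of pro-Mmp2, was called in GRflox, at 139 ± 7.86 CPM at ZT12 and 122 ± 6.07 CPM at ZT0 (log2 fold change 0.19 ± 0.06, edgeR adjusted p = 0.0196). That call was lost without GRflox ZT0 replicate 1 (adjusted p = 0.0619) and without GRflox ZT12 replicate 2 (0.0598). In CardioGRKO Timp2 averaged 140.5 ± 12.6 CPM at ZT12 and 133 ± 5.69 CPM at ZT0 and was not called. Timp1, the inducible inhibitor, had 1.17 to 4.60 CPM over all libraries and was not called in any comparison.

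Summed per length, the 4 Timp genes gave 108 to 129 CPM per kb in CardioGRKO libraries at ZT12, against 70.7 to 79.0 CPM per kb at ZT0. In GRflox the sum was 134 to 140 CPM per kb at ZT12, against 69.4 to 84.1 CPM per kb at ZT0. Timp3 made up 60.1% to 63.1% of the sum in CardioGRKO at ZT12 and 43.7% to 48.8% at ZT0, and 64.9% to 67.9% in GRflox at ZT12 and 49.3% to 53.6% at ZT0. All Mmp genes summed to 76.2 to 88.7 CPM per kb in CardioGRKO at ZT12 and 89.4 to 102 at ZT0. In GRflox that sum was 69.3 to 86.5 at ZT12 and 84.8 to 101 at ZT0, with overlap. The Adam sum was lower at ZT12 without overlap (68.3 to 76.5 against 80.3 to 86.2 CPM per kb in CardioGRKO, 66.4 to 69.0 against 78.3 to 84.6 in GRflox). In GRflox most of this gap was Adam19, with a group mean of 4.15 CPM per kb at ZT12 against 15.8 at ZT0. Adam9, the highest Adam gene, was at 23.8 CPM per kb at ZT12 against 22.8 at ZT0 in GRflox. In CardioGRKO Adam19 was also lower at ZT12 and Adam9 was not. The Adam sum therefore does not stand for the Adam genes as a whole. The Adamts sum overlapped between times in both genotypes. These sums are given as a description of the levels, with no test.

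**Figure D3:**
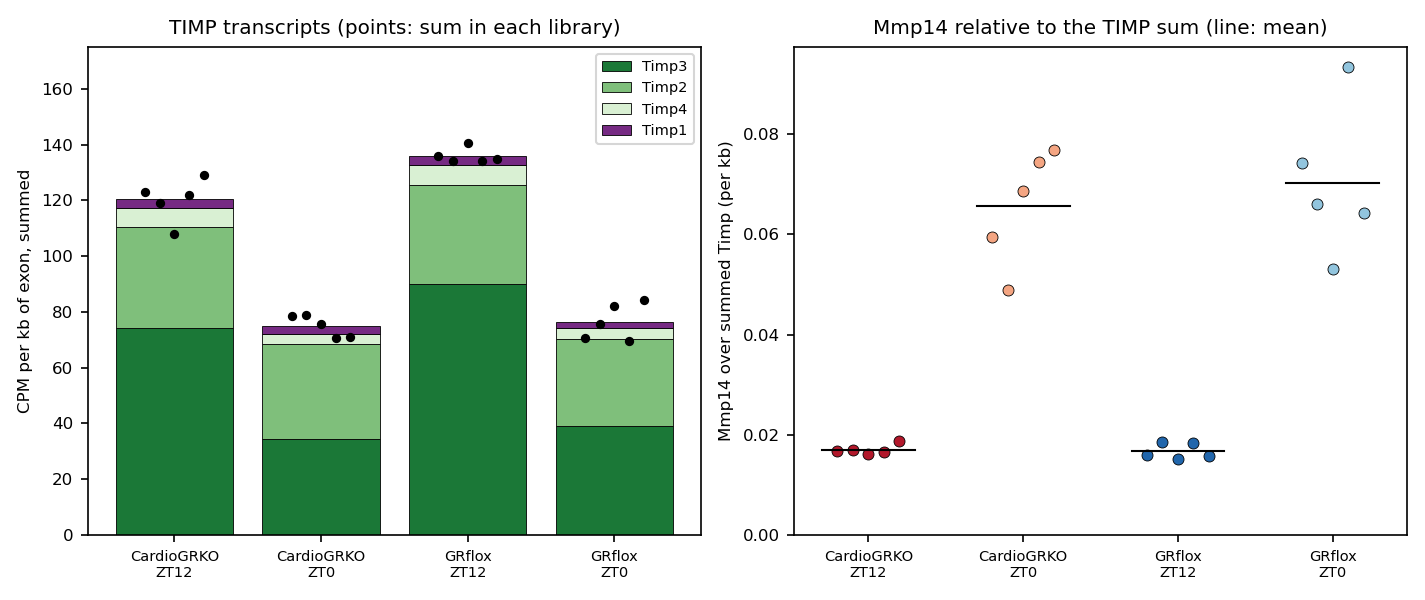
Left, mean CPM per kb of exon of Timp3, Timp2, Timp4 and Timp1 stacked for each of the 4 groups, with the sum in each of the 5 libraries as points. Right, the ratio of Mmp14 to that sum in each library with the group mean as a line: the ratio is 0.0162 to 0.0187 in CardioGRKO at ZT12 and 0.0489 to 0.0768 at ZT0, and 0.0151 to 0.0186 in GRflox at ZT12 and 0.0532 to 0.0935 at ZT0. Mmp14 is a member that fell at ZT12 while Timp3 and Timp4 rose, so the ratio does not stand for the proteases as a whole.

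Of 14 tested Mmp genes, 2 fell and 1 rose at ZT12 in CardioGRKO, and 4 fell and 2 rose in GRflox. Of all genes, 9.17% and 17.3% were called in these comparisons. Mmp14 (MT1-MMP, a membrane-bound collagenase that activates pro-Mmp2, chr14:54431598-54442456) had 12.2, 12.1, 10.5, 12.1 and 14.4 CPM in CardioGRKO libraries at ZT12, against 27.8, 23.0, 30.9, 31.4 and 32.6 CPM at ZT0. In GRflox it had 12.9, 14.8, 12.7, 14.7 and 12.7 CPM at ZT12, against 31.3, 29.9, 26.0, 38.7 and 32.1 CPM at ZT0. The ZT12 libraries were close to each other, and the highest of them lay below the lowest ZT0 library. Its log2 fold change was -1.25 ± 0.10 in CardioGRKO (edgeR adjusted p = 1.15e-08) and -1.22 ± 0.10 in GRflox (edgeR adjusted p = 6.90e-09). The interaction was -0.04 ± 0.15 on the log2 scale and did not pass (edgeR adjusted p = 0.991). Mmp2, the protease that Mmp14 activates (chr8:92827290-92853421), had 76.3, 65.6, 52.0, 61.5 and 75.9 CPM in CardioGRKO libraries at ZT12, against 79.5, 69.4, 77.4, 73.1 and 69.4 CPM at ZT0. In GRflox Mmp2 had 69.4, 82.0, 57.9, 67.3 and 63.0 CPM at ZT12, against 68.6, 80.2, 75.9, 84.9 and 78.4 CPM at ZT0. The groups overlapped throughout, and Mmp2 was not called in any comparison: the log2 fold change with time was -0.15 ± 0.09 in CardioGRKO and -0.19 ± 0.09 in GRflox (edgeR adjusted p = 0.357 and 0.163). The GRflox change was called without GRflox ZT12 replicate 2 (adjusted p = 0.0403).

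Mmp13 (collagenase 3) was scarce, with 0.315, 0.501, 0.307, 0.434 and 0.606 CPM in CardioGRKO libraries at ZT12, against 0.659, 0.708, 1.45, 1.52 and 1.15 CPM at ZT0. GRflox libraries had 0.503, 0.586, 0.441, 0.780 and 0.914 CPM at ZT12, against 0.713, 0.999, 0.907, 2.21 and 1.31 CPM at ZT0. The times were apart in CardioGRKO and overlapped in GRflox, with log2 fold changes of -1.43 ± 0.33 (edgeR adjusted p = 0.00615) and -0.94 ± 0.31 (edgeR adjusted p = 0.0402). The GRflox call was lost without any of GRflox ZT0 replicates 4 and 5 and GRflox ZT12 replicates 1, 2 and 3, with adjusted p of up to 0.124. Mmp9 (gelatinase B) averaged 0.610 ± 0.158 CPM at ZT12 and 1.16 ± 0.187 CPM at ZT0 in GRflox (log2 fold change -0.93 ± 0.31, edgeR adjusted p = 0.0406), a call lost in 8 of the 20 fits that each leave out 1 library. Mmp15 ranged over 195 to 246 CPM at ZT12 and 243 to 295 CPM at ZT0 in GRflox, where it fell (log2 fold change -0.30 ± 0.08, edgeR adjusted p = 0.00694). Mmp23, an atypical protease anchored through its N-terminus (chr4:155650655-155654539), had 10.7, 8.56, 6.94, 10.6 and 10.1 CPM in CardioGRKO libraries at ZT12, against 7.24, 7.52, 7.05, 6.15 and 5.49 CPM at ZT0. The GRflox values were 7.70, 7.16, 6.27, 5.85 and 5.36 CPM at ZT12, against 4.79, 3.95, 5.20, 5.14 and 4.55 CPM at ZT0. Mmp23 rose at ZT12 in both genotypes, with 1 CardioGRKO library at ZT12, replicate 3, inside the ZT0 range (log2 fold change 0.48 ± 0.12 in CardioGRKO, edgeR adjusted p = 0.0143, and 0.46 ± 0.13 in GRflox, edgeR adjusted p = 0.0145). The CardioGRKO call was lost without CardioGRKO ZT0 replicate 4 (adjusted p = 0.0538) or CardioGRKO ZT12 replicate 1 (0.0528). With all libraries thinned to 5854462 counts the GRflox call was lost as well (adjusted p = 0.37). Mmp24 (MT5-MMP) was higher at ZT12 in GRflox by 0.25 ± 0.08 on the log2 scale (edgeR adjusted p = 0.0447), a call lost in 14 of 20 fits without 1 library.

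Among the Adamts proteases every member called with time fell at ZT12 except Adamts10. Adamts4, an aggrecanase that also cuts versican (chr1:171250129-171262267), had 0.140, 0.137, 0.536, 0.200 and 0.485 CPM in CardioGRKO libraries at ZT12, against 2.47, 3.43, 4.02, 3.85 and 2.48 CPM at ZT0. In GRflox it had 0.554, 0.209, 0.353, 0.260 and 0.784 CPM at ZT12, against 4.18, 4.37, 4.12, 4.85 and 2.96 CPM at ZT0. The lowest ZT0 library was above every ZT12 library, and the ZT12 libraries rested on only 3 to 14 reads each. Its log2 fold change was -3.54 ± 0.30 in CardioGRKO (11.6-fold, edgeR adjusted p = 1.76e-08) and -3.29 ± 0.29 in GRflox (9.75-fold, edgeR adjusted p = 1.14e-08).

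Adamts15, another versican-cleaving protease, had 11.9, 16.6, 14.9, 13.2 and 12.6 CPM in CardioGRKO libraries at ZT12, against 19.8, 15.2, 18.0, 23.9 and 18.8 CPM at ZT0. GRflox libraries had 14.1, 10.3, 11.9, 9.17 and 8.10 CPM at ZT12, against 23.3, 16.6, 17.3, 23.2 and 21.5 CPM at ZT0. The times were apart in GRflox and overlapped in CardioGRKO (log2 fold change -0.47 ± 0.14 in CardioGRKO, edgeR adjusted p = 0.0343, and -0.90 ± 0.14 in GRflox, edgeR adjusted p = 5.60e-05). The CardioGRKO call was lost without any of CardioGRKO ZT0 replicates 1, 4 and 5 and CardioGRKO ZT12 replicates 1, 4 and 5, with adjusted p of up to 0.131. Its interaction was 0.44 ± 0.20 on the log2 scale, which did not pass (edgeR adjusted p = 0.777). Adamts12, related to Adamts7, had 1.41, 1.55, 1.35, 1.24 and 1.37 CPM in GRflox at ZT12, against 2.16 to 3.37 CPM at ZT0, with no overlap (log2 fold change -1.06 ± 0.17, edgeR adjusted p = 7.49e-05). In CardioGRKO it had 2.06, 2.14, 1.76, 1.70 and 1.51 CPM at ZT12, against 2.80, 1.83, 3.03, 2.73 and 2.83 CPM at ZT0, which did not pass (log2 fold change -0.48 ± 0.16, edgeR adjusted p = 0.0681), nor did its interaction (0.58 ± 0.24, edgeR adjusted p = 0.704). Adamts9, which is known for cutting versican, fell with a log2 fold change of -0.45 ± 0.10 in CardioGRKO and -0.42 ± 0.10 in GRflox (edgeR adjusted p = 0.00579 and 0.00508). Adamts5, the other main aggrecanase, averaged 32.7 ± 3.70 CPM at ZT12 and 43.9 ± 8.88 CPM at ZT0 in CardioGRKO (log2 fold change -0.41 ± 0.12, edgeR adjusted p = 0.0284). That call was lost without CardioGRKO replicate 3 or 5 at ZT0 or replicate 3 or 4 at ZT12, with adjusted p of up to 0.0937. Adamts10, a fibrillin-binding protease, was higher at ZT12 in CardioGRKO by 0.17 ± 0.05 (edgeR adjusted p = 0.0443), a call lost in 14 of 20 fits without 1 library.

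Adamtsl4, a fibrillin-binding protein (chr3:95676201-95687927), had 73.2, 84.7, 53.3, 77.1 and 91.5 CPM in CardioGRKO libraries at ZT12, against 50.5, 47.8, 55.8, 59.6 and 59.9 CPM at ZT0. The GRflox values were 93.1, 117, 114, 96.4 and 104 CPM at ZT12, against 63.6, 65.5, 58.5, 67.5 and 66.3 CPM at ZT0. The times were apart in GRflox, and in CardioGRKO 1 ZT12 library, replicate 3, lay among the ZT0 values. Adamtsl4 rose at ZT12 by 0.47 ± 0.10 on the log2 scale in CardioGRKO (edgeR adjusted p = 0.00417) and by 0.71 ± 0.10 in GRflox (edgeR adjusted p = 1.73e-05). Adamtsl3 was higher at ZT12 in GRflox by 0.37 ± 0.12 (edgeR adjusted p = 0.0292), a call lost in 7 of 20 fits without 1 library.

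The sheddases Adam10 and Adam17 fell slightly at ZT12 in GRflox, whereas Adam9 did not pass (log2 fold change 0.06 ± 0.04, edgeR adjusted p = 0.354). Adam10, which sheds Notch receptors and cadherins, had 63.5, 61.3, 54.6, 63.7 and 56.2 CPM in GRflox at ZT12, against 67.7, 68.6, 70.9, 72.5 and 81.1 CPM at ZT0. In CardioGRKO it had 62.1, 67.5, 63.2, 61.3 and 69.9 CPM at ZT12, against 70.6, 70.1, 69.2, 68.3 and 77.3 CPM at ZT0. Only the GRflox times were apart (log2 fold change -0.27 ± 0.06, edgeR adjusted p = 0.00149), while the CardioGRKO change of -0.13 ± 0.06 did not pass (edgeR adjusted p = 0.164). Adam17, the TNF-alpha converting enzyme, had a log2 fold change of -0.26 ± 0.06 in GRflox (edgeR adjusted p = 0.00254) and of -0.14 ± 0.06 in CardioGRKO (edgeR adjusted p = 0.148), the second not called. The interactions of both genes did not pass (edgeR adjusted p = 0.893 for Adam10 and 0.919 for Adam17). Adam12 (meltrin alpha) averaged 0.979 ± 0.298 CPM at ZT12 and 1.85 ± 0.623 CPM at ZT0 in GRflox (log2 fold change -0.97 ± 0.30, edgeR adjusted p = 0.025). That call was lost without replicate 2 or 3 of GRflox at either time, with adjusted p of up to 0.0935.

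Adam19 was the member with the largest difference among the Adam genes in both time comparisons and between genotypes at ZT12. Adam19 (meltrin beta, a membrane protease needed for heart valve and septum formation in mouse embryos, chr11:46054502-46147347) had 97.6, 54.9, 63.3, 66.5 and 68.1 CPM in CardioGRKO libraries at ZT12, against 137, 119, 150.3, 153 and 151 CPM at ZT0. In GRflox it had 33.2, 43.0, 23.6, 22.8 and 25.0 CPM at ZT12, against 110.4, 99.1, 90.9, 135 and 127 CPM at ZT0. All ZT12 libraries lay below the ZT0 libraries of the same genotype, with the wider gap in GRflox. The log2 fold change with time was -1.02 ± 0.15 in CardioGRKO (edgeR adjusted p = 7.58e-05) and -1.92 ± 0.16 in GRflox (edgeR adjusted p = 6.05e-09). Between genotypes at ZT12, every CardioGRKO library was above every GRflox library, and Adam19 was higher by 1.24 ± 0.16 on the log2 scale (2.37-fold, edgeR adjusted p = 3.51e-06). At ZT0 the genotypes overlapped, and the log2 fold change of 0.34 ± 0.15 did not pass (edgeR adjusted p = 0.137), although it did with only the ZT0 groups in the fit (adjusted p = 0.0246) and with libraries thinned to 5854462 counts (0.0404). The difference between these genotype effects, tested as the interaction, was 0.90 ± 0.22 on the log2 scale, with an unadjusted p of 4.09e-04 and an edgeR adjusted p of 0.112 over all genes. Without GRflox ZT12 replicate 2, which had the highest Adam19 level of its group, the interaction passed (log2 difference 1.08, adjusted p = 0.013). Over the fits that each left out 1 library the adjusted p ran from 0.013 to 0.262. The antisense genes Gm16033 and Gm16034 overlap 8.3% and 6.7% of the Adam19 exons.

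**Figure D4:**
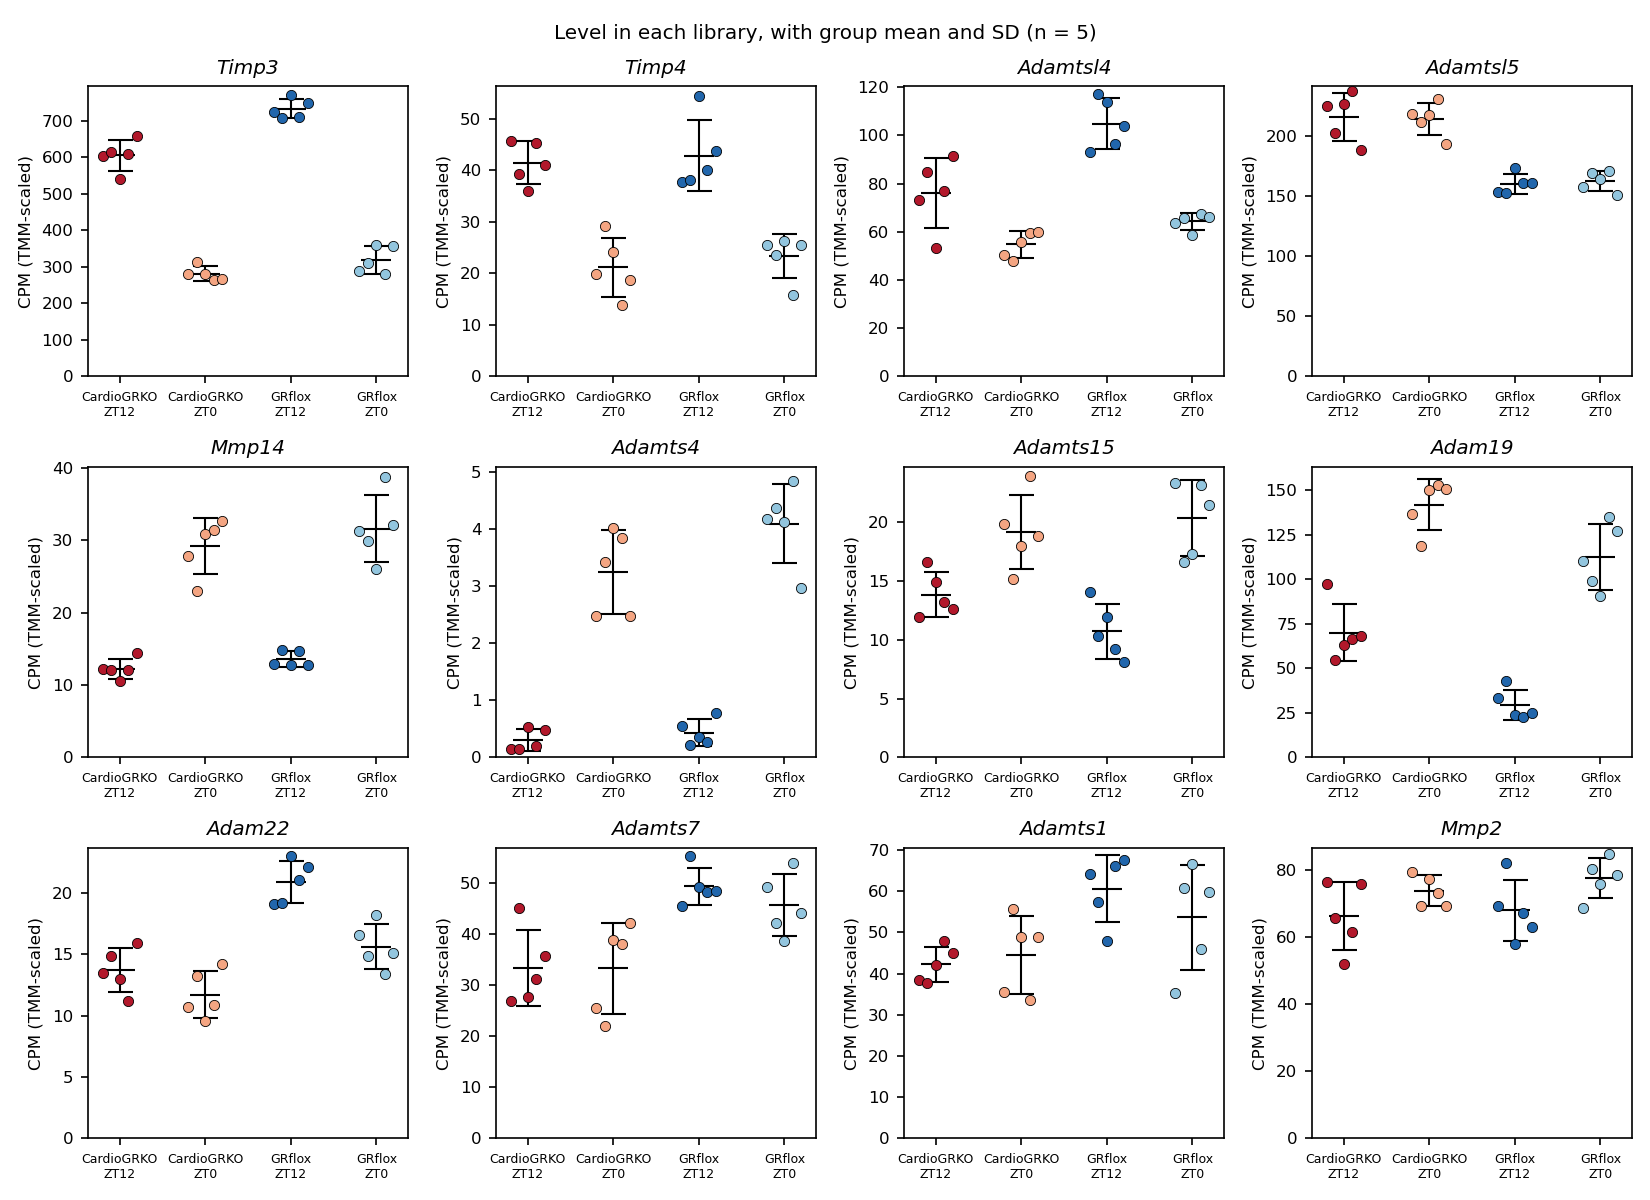
CPM of 12 genes in each library (points), with the mean and SD of each group of 5 (bars), in CardioGRKO and GRflox at ZT12 and ZT0; each panel starts at 0. Timp3 and Timp4 are high and Mmp14 and Adamts4 low at ZT12 in both genotypes, Adamtsl5 is higher in CardioGRKO at both times, and Adam19 is low in GRflox at ZT12 (22.8 to 43.0 CPM).

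Between genotypes, 12 of the 52 tested members differed at ZT12 (23.1%), 6 higher and 6 lower in CardioGRKO, beside 21.1% of all genes (10.4% higher and 10.7% lower). At ZT0 6 members differed (11.5%), 4 higher and 2 lower, beside 14.7% of all genes (7.36% higher and 7.35% lower). Both shares were near those of all genes, and the median log2 fold change of the members was -0.02 at ZT12 and -0.05 at ZT0, beside 0.00 and -0.01 over all genes. 5 members were called at both times: Adamtsl5, Mmp23 and Adamts20 were higher in CardioGRKO, and Adam22 and Adamts7 lower. The share of all genes called at both times was not counted. Cardiomyocyte markers were lower in CardioGRKO at the same time, 7 of 8 at ZT12 and 4 of 8 at ZT0, and summed to 82950 to 97324 CPM in CardioGRKO and 101266 to 106043 CPM in GRflox at ZT12. At ZT0 that sum was 82929 to 90482 CPM in CardioGRKO and 94950 to 100673 CPM in GRflox. Of 8 endothelial markers, 3 at ZT12 and 4 at ZT0 were lower in CardioGRKO and none higher, while none of 8 fibroblast markers was called in either. Of 9 pericyte and smooth muscle markers, Acta2 was higher and Rgs5 lower in CardioGRKO at both times, and Myh11 and Tagln were lower at ZT0, and among 4 endocardial markers Cytl1 was lower at ZT12. The pericyte and smooth muscle sum was 1314 to 1769 CPM in CardioGRKO and 1407 to 1655 CPM in GRflox at ZT12, and 1514 to 1802 CPM in CardioGRKO and 1399 to 1598 CPM in GRflox at ZT0. The part of these marker shifts between genotypes in the members' values was also not tested.

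Adamtsl5, a secreted Adamts-like protein and the third highest member per length (chr10:80339793-80349030), had 225, 202, 226, 237 and 188 CPM in CardioGRKO libraries at ZT12, against 153, 152, 173, 160.4 and 161 CPM in GRflox. At ZT0 it had 218, 211, 217, 230.5 and 193 CPM in CardioGRKO, against 157, 169, 164, 171 and 151 CPM in GRflox. No CardioGRKO library overlapped the GRflox libraries at either time. The log2 fold change was 0.43 ± 0.06 at ZT12 (edgeR adjusted p = 8.90e-06) and 0.40 ± 0.06 at ZT0 (edgeR adjusted p = 4.54e-05), while with time Adamtsl5 did not pass in either genotype (log2 fold change 0.01 ± 0.06 in CardioGRKO and -0.02 ± 0.06 in GRflox). Mmp23, whose values are given above, was higher in CardioGRKO by 0.53 ± 0.12 at ZT12 (edgeR adjusted p = 0.00275) and by 0.51 ± 0.13 at ZT0 (edgeR adjusted p = 0.00968). With its 44 to 317 reads per library, the ZT0 call was lost when libraries were thinned to 5854462 counts (adjusted p = 0.246). Adamts20, a scarce protease known for its part in melanoblast migration in mouse embryos, had 0.944, 0.865, 1.80, 0.869 and 0.788 CPM in CardioGRKO libraries at ZT12, against 0.755, 0.586, 0.294, 0.260 and 0.653 CPM in GRflox. At ZT0 Adamts20 had 1.15, 1.10, 0.949, 1.45 and 0.531 CPM in CardioGRKO, against 0.459, 0.291, 0.419, 0.714 and 0.700 CPM in GRflox. The genotypes were apart at ZT12, where 1 CardioGRKO library, replicate 3, was well above the rest, and overlapped at ZT0 (log2 fold change 1.09 ± 0.33, edgeR adjusted p = 0.0183, and 1.08 ± 0.33, edgeR adjusted p = 0.0271). The ZT12 call was lost without CardioGRKO ZT12 replicate 3 (adjusted p = 0.0847) or GRflox ZT12 replicate 3 (0.0756), and the ZT0 call without CardioGRKO ZT0 replicate 2 or 4 or GRflox ZT0 replicate 1, 2 or 3, with adjusted p of up to 0.101.

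Adam22, a catalytically inactive member known as a receptor for LGI1 in neurons (chr5:8072347-8368312), had 13.5, 14.9, 13.0, 11.2 and 15.9 CPM in CardioGRKO libraries at ZT12, against 19.1, 19.2, 23.0, 21.1 and 22.1 CPM in GRflox. At ZT0 it had 10.7, 13.2, 9.53, 10.9 and 14.2 CPM in CardioGRKO, against 16.6, 14.9, 18.2, 13.4 and 15.1 CPM in GRflox. The genotypes were apart at ZT12 and overlapped at ZT0, and Adam22 was lower in CardioGRKO, with a log2 fold change of -0.62 ± 0.10 at ZT12 (edgeR adjusted p = 9.83e-05) and -0.43 ± 0.11 at ZT0 (edgeR adjusted p = 0.00879). It also rose at ZT12 over ZT0 in GRflox (0.41 ± 0.10, edgeR adjusted p = 0.00627), while the change in CardioGRKO (0.22 ± 0.11) and the interaction (-0.19 ± 0.15, edgeR adjusted p = 0.932) did not pass. Adamts7, which cuts the matrix protein COMP (chr9:90162904-90200102), had 26.9, 45.2, 27.7, 31.3 and 35.8 CPM in CardioGRKO libraries at ZT12, against 45.5, 55.2, 49.3, 48.2 and 48.4 CPM in GRflox. At ZT0 Adamts7 had 25.5, 22.0, 38.9, 38.0 and 42.1 CPM in CardioGRKO, against 49.3, 42.2, 38.7, 54.0 and 44.2 CPM in GRflox. CardioGRKO libraries were spread more widely, and all lay below the GRflox libraries at ZT12 but not at ZT0. The log2 fold change was -0.57 ± 0.15 at ZT12 (edgeR adjusted p = 0.00639) and -0.44 ± 0.15 at ZT0 (edgeR adjusted p = 0.0482), and the ZT0 call was lost in 13 of 20 fits without 1 library, with adjusted p of up to 0.16. Adam11, another catalytically inactive member, was called at ZT0 alone, at 29.2 ± 3.25 CPM in CardioGRKO and 23.5 ± 2.40 CPM in GRflox (log2 fold change 0.33 ± 0.09, edgeR adjusted p = 0.0114), and lost the call on thinning to 5854462 counts (adjusted p = 0.313).

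At ZT12 alone, 7 members were called between genotypes, and the share of all genes called at that time alone was not counted. Adamts1, a versican-cleaving protease that also restrains vessel growth (chr16:85793827-85803113), had 38.5, 37.7, 42.0, 47.9 and 45.0 CPM in CardioGRKO libraries at ZT12, against 64.3, 57.4, 47.9, 66.1 and 67.5 CPM in GRflox. At ZT0 Adamts1 had 35.6, 55.6, 48.9, 33.6 and 49.0 CPM in CardioGRKO, against 35.2, 60.7, 66.6, 46.0 and 59.8 CPM in GRflox. The genotypes met at 47.9 CPM at ZT12 and overlapped widely at ZT0. Adamts1 was lower in CardioGRKO at ZT12, with a log2 fold change of -0.52 ± 0.15 (edgeR adjusted p = 0.0121), while at ZT0 the change of -0.26 ± 0.15 did not pass (edgeR adjusted p = 0.257), nor did the interaction (-0.25 ± 0.21, edgeR adjusted p = 0.932). Adamtsl4 and Timp3, both higher at ZT12 than at ZT0, reached a lower ZT12 level in CardioGRKO than in GRflox, with log2 fold changes of -0.47 ± 0.10 (edgeR adjusted p = 0.0012) and -0.28 ± 0.07 (edgeR adjusted p = 0.00349). At ZT0 neither passed (log2 fold change -0.23 ± 0.10 for Adamtsl4 and -0.18 ± 0.07 for Timp3), although Timp3 did without GRflox ZT0 replicate 1 (adjusted p = 0.0458), GRflox ZT0 replicate 4 (0.0247) or CardioGRKO ZT0 replicate 2 (0.0329). Adamtsl2, known to bind a regulator of TGF-beta in humans, averaged 36.0 ± 15.5 CPM in CardioGRKO and 19.8 ± 5.84 CPM in GRflox at ZT12 (log2 fold change 0.89 ± 0.27, edgeR adjusted p = 0.0185). The Adamtsl2 call was lost without GRflox ZT12 replicate 2 (adjusted p = 0.0574) or CardioGRKO ZT12 replicate 1 (0.0647) or 4 (0.0702). Mmp15 averaged 252 ± 21.3 CPM in CardioGRKO and 213 ± 21.6 CPM in GRflox at ZT12 (log2 fold change 0.24 ± 0.08, edgeR adjusted p = 0.024), a call lost in 5 of 20 fits without 1 library. Adam15 (metargidin, found on endothelial cells) averaged 70.7 ± 7.05 CPM in CardioGRKO and 81.8 ± 5.80 CPM in GRflox (log2 fold change -0.21 ± 0.07, edgeR adjusted p = 0.0228). That call was lost without GRflox ZT12 replicate 3 (0.0893) or CardioGRKO ZT12 replicate 2 (0.0726), and an antisense gene, 4731419I09Rik, overlaps 20.6% of the Adam15 exons.

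The rest of the pathway was read from 4 gene lists. Of 24 tested activators and regulators, 1 was higher and 4 lower in CardioGRKO at ZT12, and 2 higher and 2 lower at ZT0, where 21.1% and 14.7% of all genes were called, with list medians of -0.02 and -0.13 beside 0.00 and -0.01 over all genes. Furin, the proprotein convertase that activates membrane-type Mmp and Adam proteases, averaged 154 ± 15.9 CPM in CardioGRKO and 215 ± 29.7 CPM in GRflox at ZT12 (log2 fold change -0.49 ± 0.08, edgeR adjusted p = 7.51e-05). At ZT0 it averaged 161 ± 12.8 CPM in CardioGRKO and 213 ± 13.2 CPM in GRflox (-0.40 ± 0.08, edgeR adjusted p = 0.0012). Tspan17, a tetraspanin that escorts Adam10 to the surface, was higher in CardioGRKO at both times (log2 fold change 0.65 ± 0.12 at ZT12, edgeR adjusted p = 3.12e-04, and 0.45 ± 0.13 at ZT0, edgeR adjusted p = 0.0165). With time, 5 of the 24 were higher and 2 lower at ZT12 in CardioGRKO, and 4 higher and 3 lower in GRflox (9.17% and 17.3% of all genes were called), with list medians of 0.06 in both, beside 0.00 and 0.01 over all genes. Plat, the tissue plasminogen activator, fell at ZT12 in CardioGRKO (log2 fold change -0.47 ± 0.08, edgeR adjusted p = 2.97e-04) and is among the 3 lower genes in GRflox.

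Of 23 tested matrix substrates, 4 were higher and 5 lower at ZT12 than at ZT0 in CardioGRKO, and 2 higher and 5 lower in GRflox, where 9.17% and 17.3% of all genes were called, with list medians of -0.02 and 0.12 beside 0.00 and 0.01 over all genes. Eln, which encodes elastin, averaged 46.3 ± 8.08 CPM at ZT12 and 101 ± 15.7 CPM at ZT0 in CardioGRKO, and 50.6 ± 10.9 CPM at ZT12 and 114 ± 17.6 CPM at ZT0 in GRflox. Its log2 fold change was -1.14 ± 0.14 in CardioGRKO (edgeR adjusted p = 5.72e-06) and -1.16 ± 0.14 in GRflox (edgeR adjusted p = 1.65e-06). Fbn1, the microfibril protein fibrillin-1, fell with a log2 fold change of -0.64 ± 0.09 in CardioGRKO (edgeR adjusted p = 3.12e-05) and -0.89 ± 0.09 in GRflox (edgeR adjusted p = 1.26e-07). Between genotypes, 3 substrates were higher and 2 lower in CardioGRKO at ZT12, and 2 higher and 2 lower at ZT0 (list medians -0.05 and 0.05, beside 0.00 and -0.01 over all genes, of which 21.1% and 14.7% were called). Fbn2 was the most different, at 3.11 ± 0.856 CPM in CardioGRKO and 1.40 ± 0.427 CPM in GRflox at ZT12 (log2 fold change 1.19 ± 0.20, edgeR adjusted p = 1.23e-04).

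Of 28 tested membrane proteins known to be shed by Adam proteases, 5 were higher and 3 lower in CardioGRKO at ZT12, and 4 higher and 2 lower at ZT0, where 21.1% and 14.7% of all genes were called, with list medians of -0.06 and -0.04 beside 0.00 and -0.01 over all genes. Hbegf, a growth factor released by shedding, averaged 31.2 ± 2.89 CPM in CardioGRKO and 22.9 ± 2.41 CPM in GRflox at ZT0 (log2 fold change 0.46 ± 0.08, edgeR adjusted p = 2.48e-04). Cdh2 (N-cadherin) averaged 529 ± 17.1 CPM in CardioGRKO and 448 ± 15.6 CPM in GRflox at ZT12 (log2 fold change 0.24 ± 0.03, edgeR adjusted p = 1.45e-05). Cdh5 was lower in CardioGRKO at both times (log2 fold change -0.22 ± 0.04 at ZT12, edgeR adjusted p = 5.97e-04, and -0.18 ± 0.04 at ZT0, edgeR adjusted p = 0.00582). With time, 1 was higher and 4 lower at ZT12 in CardioGRKO, and 4 higher and 4 lower in GRflox, where 9.17% and 17.3% of all genes were called, with list medians of 0.02 and -0.01 beside 0.00 and 0.01 over all genes. Btc (betacellulin) averaged 1.43 ± 0.271 CPM at ZT12 and 2.54 ± 0.456 CPM at ZT0 in CardioGRKO, and 1.27 ± 0.348 CPM at ZT12 and 2.45 ± 0.522 CPM at ZT0 in GRflox (edgeR adjusted p = 0.014 and 0.00109). Axl rose at ZT12 in both genotypes (log2 fold change 0.28 ± 0.04 in CardioGRKO, edgeR adjusted p = 1.18e-04, and 0.17 ± 0.04 in GRflox, edgeR adjusted p = 0.00667). Of 10 tested extracellular metalloproteases outside the symbol rule, Ece1 (endothelin converting enzyme) was lower in CardioGRKO at both times (log2 fold change -0.19 ± 0.04 at ZT12, edgeR adjusted p = 0.00191, and -0.21 ± 0.04 at ZT0, edgeR adjusted p = 8.89e-04) and Mme (neprilysin) at ZT12 alone. Ace (angiotensin converting enzyme) and Tll2 (a tolloid-like protease) were the members of that list that passed with time, higher at ZT12 in both genotypes. The list medians were 0.02 and -0.02 between genotypes at ZT12 and ZT0, beside 0.00 and -0.01 over all genes (21.1% and 14.7% called), and 0.09 and 0.05 with time in CardioGRKO and GRflox, beside 0.00 and 0.01 over all genes (9.17% and 17.3% called).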

How the data were processed

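The deposited files hold whole-number counts per gene that the authors had not normalized, 1 file for each of 20 libraries, with genotype, time and replicate taken from the labels. Per the labels' protocols, poly(A)-enriched libraries were sequenced in paired reads of 75 bases. The submitters' processing notes name the build mm10, STAR 2.5.1, Subread 1.5.1 with its featureCounts, and DESeq2 1.38.3. The sources used here do not give the annotation release, the use of strand or the treatment of multi-mapping reads.

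Lines of 1 gene were summed by Entrez identifier, giving 24059 genes, and all 84 members had coordinates (GRCm38.p6) and an exon length (union of exons, GENCODE vM21). Genes were kept with filterByExpr of edgeR 4.0.16 in R 4.3.3 (minimum count 10, minimum total 15), which left 14007. The quasi-likelihood F-test was run on a model of the 4 group means over all 20 libraries with TMM factors of 0.961 to 1.040. P-values were adjusted by Benjamini-Hochberg within each contrast, over all 14007 genes, with a threshold of 0.05. Standard errors are the size of the log2 fold change over the square root of F. CPM values are scaled by TMM, and CPM per kb divides them by exon length. The code was tested on simulated data. Replicate pairs of a group had a chi-square per gene of 4.22 to 20.96, above sampling noise.

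The members, gene lists and marker lists were chosen with earlier results of these data known. Every member called in a contrast may be named, with Adam19, Adamts1, Mmp2 and the Timp genes, the 3 highest members of each family per length, and up to 4 genes of each further list by smallest p. Not every list gene that the rule allows is reported here. Alternatives were DESeq2 1.42.0, its size factors, no filter, only the groups compared, a replicate block, thinning to 5854462 counts and leaving out each library. The main model did not pair samples by replicate number. Python 3.11.15 with matplotlib 3.10.9 made the figures.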

Additional observations from a re-analysis of the deposited data

Results flagged for a closer look

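In groups of 5 libraries, a value is listed here when its gap to the nearest other exceeds 0.71 of the range (Dixon's limit at the 95% level). Of 84 groups checked (21 genes in 4 groups), 4 held such a library, and chance alone flags about 1 in 20. Timp4 in GRflox at ZT0 was 15.8 CPM in replicate 4, and 23.6 to 26.2 CPM in the others. Adamts20 in CardioGRKO at ZT12 was 1.80 CPM in replicate 3, and 0.788 to 0.944 CPM in the others. Adamts12 in CardioGRKO at ZT0 was 1.83 CPM in replicate 2, and 2.73 to 3.03 CPM in the others. Adam10 in CardioGRKO at ZT0 was 77.3 CPM in replicate 5, and 68.3 to 70.6 CPM in the others.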

How the results depend on the processing

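With every library thinned to 5854462 counts, 13 members were called with time in GRflox, and over all genes 1885 and 1350 between genotypes at ZT12 and ZT0, and 808 and 1466 with time in CardioGRKO and GRflox, which follows from fewer reads per gene. DESeq2 called 69 genes for the interaction, against 26 with edgeR, and the cause was not tested. Leaving out each library in turn, called members ran from 9 to 13 between genotypes at ZT12, 4 to 7 at ZT0, 9 to 14 with time in CardioGRKO, 15 to 21 in GRflox, and 0 to 1 for the interaction (Adam19). Over all genes these counts ran from 2498 to 3041, 1636 to 2136, 874 to 1371, 1931 to 2504, and 16 to 33.

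Of 50 called results of named members, 19 lost the call in at least 1 alternative and 0 changed sign. The least stable were Adamts10 with time in CardioGRKO, Adamts7 between genotypes at ZT0 (DESeq2 adjusted p = 0.0552) and Mmp24 with time in GRflox. Thinning ended the calls of Adam11 and Mmp23 between genotypes at ZT0, of Adamts10 with time in CardioGRKO, and of Adam12, Adamtsl3, Mmp23, Mmp24 and Timp2 with time in GRflox. Without a filter the calls of Adamts10 and Mmp24 were lost, and with only the groups compared those of Adamts7 at ZT0, Adamts10, and Mmp13 in GRflox. Results not called were followed singly only for Adam19, Adamts1, Mmp2 and Timp1 to Timp4. Of these 25 results, 4 gained a call and 10 changed sign. For the other members it was not followed which results gained a call. On thinning, Mmp2 came to 0.01 between genotypes at ZT0 and -0.01 for the interaction, and Timp1 to -0.13 with time in CardioGRKO. Leaving out single libraries, log2 fold changes between genotypes at ZT12 ran from -0.09 to 0.04 for Mmp2, -0.33 to 0.10 for Timp1, -0.02 to 0.07 for Timp2 and -0.09 to 0.06 for Timp4, and at ZT0 from -0.31 to 0.01 for Timp4. With time in CardioGRKO they ran from -0.20 to 0.00 for Adamts1 and -0.14 to 0.28 for Timp1, and the interaction from -0.02 to 0.12 for Mmp2 and -0.06 to 0.26 for Timp4.

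Deviations of samples with the same replicate number had correlations of -0.05 to 0.23 between genotypes and -0.27 to 0.14 with time. These low values cannot show that the samples are unpaired, so whether the numbers pair them is not known. With the replicate block, 14 and 6 members were called between genotypes at ZT12 and ZT0, 15 and 20 with time in CardioGRKO and GRflox, and 0 for the interaction. Over all genes the block called 3111 and 2194 between genotypes at ZT12 and ZT0, against 2952 and 2060 without it. With time it called 1359 in CardioGRKO and 2513 in GRflox, against 1284 and 2423. For the interaction it called 38, against 26. Of the 50 called results, the block ended 1, Adamts7 between genotypes at ZT0 (adjusted p = 0.0511). It also added calls in members whose results were not followed singly. Between genotypes 8 were higher at ZT12, against 6 without the block, and 5 at ZT0, against 4. With time in CardioGRKO 10 were lower, against 7 without the block. Scarce genes such as Adamts4, Mmp13, Mmp9 and Adamts20 rest on few reads per library, so small changes in them may have been missed, which was not tested.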
